A study of Mus musculus with 247 samples.

Results

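Guanylate-binding proteins (GBPs) and immunity-related GTPases (IRGs) are the interferon-inducible GTPases with which a cell attacks microbes inside it. The set described here holds 9 of them, the GBP genes Gbp2, Gbp3, Gbp5 and Gbp7 and the IRG genes Irgm1, Irgm2, Igtp, Iigp1 and Ifi47. They were listed by gene name, with no threshold on measured values, and peaks were taken where the deposited annotation gave a member as the gene of the peak. All 9 were among the 14378 genes of the RNA table, and all 9 passed the filter on low values that left 11791 genes to test. Members held 25 of 73206 open chromatin regions (9 genes), 16 of 52093 PU.1 peaks (8 genes), 19 of 58888 JunB peaks (7 genes), 7 of 26718 MED1 regions (5 genes) and 13 of 23360 RNA polymerase II regions (6 genes).

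The study concerned GPS2, a subunit of the nuclear receptor corepressor complex with SMRT and NCoR, in RAW264.7 cells, a mouse macrophage-like line of BALB/c origin. Wild-type (WT) cells were compared with cells whose Gps2 had been disrupted by CRISPR (knockout, KO), untreated or given bacterial lipopolysaccharide (LPS), the ligand of Toll-like receptor 4. Polyadenylated RNA was sequenced from WT and KO cells, untreated or after 6 h of LPS at 10 ng/ml, with 4 libraries in each of the 4 groups. Open chromatin was measured by ATAC-seq in 3 untreated control and 3 untreated KO libraries. ChIP-seq for PU.1 and JunB had 2 libraries in each of the same 4 kinds of cells, and ChIP-seq for MED1 and RNA polymerase II had 2 WT and 2 KO libraries with LPS, the LPS being given for 2 h in ChIP-seq. The labels name no clones, so the loss of GPS2 and a difference between cell lines cannot be told apart, and nothing says that RNA libraries came from separate cultures, so p-values measure only the spread between these libraries.

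The GBPs belong to the dynamin superfamily, and several of them, Gbp2 and Gbp5 included, carry a lipid anchor by which they coat vacuoles and free bacteria and feed bacterial products to inflammasomes. The IRGs fall into effectors such as Iigp1 and Ifi47 (also called Irga6 and Irgd), which load onto vacuoles of parasites and bacteria, and regulators such as Irgm1, Irgm2 and Igtp (Irgm3), which sit on the cell's own membranes and hold the effectors back there. In macrophages LPS induces interferon beta, which acts back on the cell through STAT factors at interferon-stimulated response elements (ISREs), and IRF1 reaches the same elements.

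The ISRE was the letter pattern that most of the members' promoters shared. RefSeq windows (GRCm38.p6, 250 bases before to 50 after a start) were found for 8 of 9 members, all but Iigp1, and each was located once in mm9 (NCBIM37), the build of the files. The pattern GAAANNGAAA, read on both strands, occurred within 250 bases upstream of the RefSeq start of 7 of these 8 genes, against 2.98% of all 32851 windows. The exception, Ifi47, held it upstream of another start, the one used in the RNA table (chr11:48900519, against 48890089 for RefSeq). Only Ifi47 was searched at another start, and the 2.98% does not cover that search. The Ifi47 stretch below, like that of Irgm1, lies wholly in an annotated exon of the gene. The stretches below run 5′ to 3′ in the direction of the gene, with the matches in capitals, and an ISRE on the other strand reads as a pair of TTTC blocks in place of GAAA blocks. Stretches that touch annotated exons were kept to 30 bases.
Gbp5, chr3:142159718-142159863: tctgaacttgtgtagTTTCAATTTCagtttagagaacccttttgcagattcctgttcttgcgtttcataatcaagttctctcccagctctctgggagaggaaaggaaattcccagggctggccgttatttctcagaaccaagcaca
Gbp7, chr3:142193170-142193299: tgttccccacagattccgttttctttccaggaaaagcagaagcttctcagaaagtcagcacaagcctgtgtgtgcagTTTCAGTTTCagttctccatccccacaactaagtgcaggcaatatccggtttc
Gbp3, chr3:142222878-142223007: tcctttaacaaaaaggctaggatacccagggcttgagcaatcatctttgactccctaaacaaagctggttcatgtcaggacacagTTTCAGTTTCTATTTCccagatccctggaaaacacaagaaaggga
Gbp2, chr3:142283559-142283588: ctcttttagTTTCACTTTCactgtcttaag
Irgm1, minus strand, chr11:48684931-48684960: tgtttcaaGAAATAGAAACCGAAActgatt
Ifi47, chr11:48900421-48900450: ttaaagtcctTTTCTTTTTCctggaaatgt
Igtp, chr11:58012928-58013057: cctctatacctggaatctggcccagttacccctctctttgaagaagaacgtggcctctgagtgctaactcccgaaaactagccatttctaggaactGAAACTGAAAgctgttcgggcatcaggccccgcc
Irgm2, chr11:58028349-58028478: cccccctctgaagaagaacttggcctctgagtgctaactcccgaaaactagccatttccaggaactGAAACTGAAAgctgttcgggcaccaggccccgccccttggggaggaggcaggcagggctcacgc
The Gbp3 and Irgm1 stretches each hold 2 ISRE matches that overlap, so that 3 GAAA blocks stand in a row. Igtp and Irgm2, neighbours on chromosome 11, share an ungapped stretch of 92 bases of which 89 are identical, and the longest stretch in any other of the 28 promoter pairs was 21 bases. A match is a string of letters and does not show that a factor binds there.

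Other patterns were rarer. The STAT pattern TTCNNNGAA occurred upstream of 4 of the 8 genes (Gbp5, Gbp7, Igtp and Irgm2, against 7.02% of windows), and it overlapped an ISRE match in none of them. The composite ETS-IRF pattern GGAANNGAAA occurred in Gbp5, Igtp and Irgm2 (2.30% of windows), and in Igtp and Irgm2 it overlapped both the STAT match and the ISRE match. AP-1 letters, TGANTCA, the site of JunB dimers, occurred upstream of Gbp2 and Irgm1 (6.75% of windows), and they are shown because both promoters carried JunB peaks. An intronic JunB peak of Gbp5 held 2 AP-1 matches on either side of an ISRE.
Gbp2, chr3:142283497-142283565: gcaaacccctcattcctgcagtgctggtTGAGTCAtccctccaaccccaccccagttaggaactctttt
Irgm1, minus strand, chr11:48685019-48685048: cctgttgacggTGAGTCAgcacagcagggt
Gbp5 intron, chr3:142162199-142162299: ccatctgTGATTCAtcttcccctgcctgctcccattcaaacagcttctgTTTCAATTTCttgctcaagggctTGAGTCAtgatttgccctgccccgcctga

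Levels are given as normalised reads, the deposited reads per 10000000 mapped reads divided by the library's TMM (trimmed mean of M values) factor. RNA depth was 12094940 to 22968591 mapped reads per library, ATAC depth 4038814 to 7108592, and ChIP depth 8096466 to 16006472. Gps2 itself stood at 415 to 458 in WT, 420 to 496 in WT with LPS, 130 to 135 in KO and 76.9 to 98.5 in KO with LPS, so the KO libraries sat below every WT library. Macrophage markers (10 of 10 in the table) summed to 84259 to 93161 in WT, 83903 to 112288 in WT with LPS, 117043 to 123449 in KO and 104305 to 109735 in KO with LPS, while B cell markers summed to at most 1.73 and fibroblast and epithelial markers to at most 1.097. The 2 of 4 granulocyte markers in the table summed to 14.8 to 18.2 in WT, 33.5 to 41.3 in WT with LPS, 92.8 to 106 in KO and 64.1 to 77.4 in KO with LPS. The 2 of 4 dendritic cell markers in the table summed to 11.8 to 15.8, 181 to 273, 8.42 to 11.6 and 79.4 to 97.02 in the same order, and the 2 of 8 T and NK cell markers to 37.3 to 37.9, 157 to 175, 76.8 to 82.6 and 149 to 156. The part of these marker lists in the results was not tested. Replicate 4 of WT with LPS stood apart: its deviation from its group had an SD of 0.72 (log2) over 11791 genes, against 0.18 to 0.38 in the other 15 libraries, and it fell with transcript length (Spearman rho -0.64). Comparisons of KO with WT in RNA are therefore also given without it, while levels per kilobase and rises with LPS are not. Its part in the results was not tested. The 2 libraries of each ChIP group differed by less than or about the sampling noise (chi-square per degree of freedom 0.82 to 1.24) and were counted as 1 sample, with no SD, but the tests entered both libraries, so they compare libraries, not conditions, and their p-values measure no spread between samples. How reads shared by near-identical family members were assigned is not given in the sources used here, so levels of single members are uncertain to that extent.

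**Figure D1:**
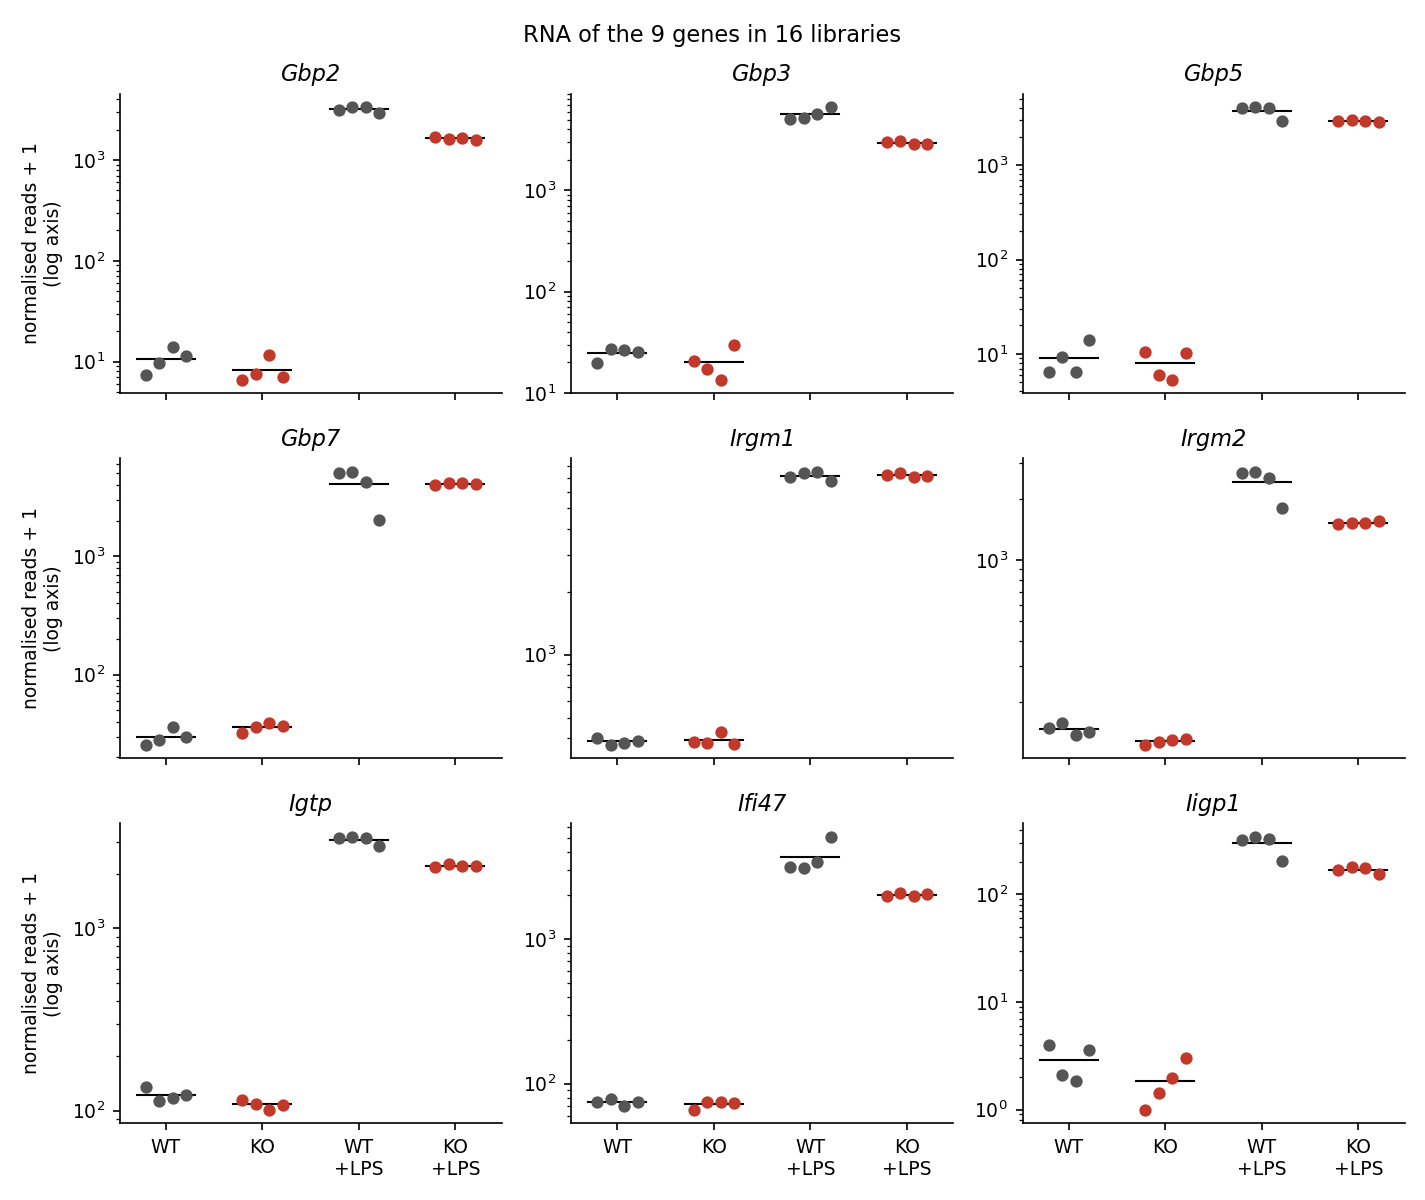
RNA levels of the 9 genes, 1 panel per gene, as normalised reads + 1 on a log axis in WT, KO, WT with LPS and KO with LPS; points are libraries (n = 4 per group) and the line is the group mean. All 9 genes rise with LPS in both genotypes, and Gbp2, Gbp3, Irgm2, Igtp and Ifi47 sit lower in KO with LPS than in WT with LPS with no overlap.

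LPS raised all 9 genes in both genotypes, in WT between 16.4-fold (Irgm2) and 439-fold (Gbp5) on the log2(value + 1) scale. The background for genes higher with LPS was 34.2% of genes tested in WT and 31.5% in KO. The 4 GBP genes moved from 37.9 or less in every untreated library to 1594 or more in every library with LPS. Gbp2 stood at 6.40, 8.78, 12.9 and 10.4 normalised reads in WT and at 3147, 3337, 3339 and 2934 in WT with LPS, a 308-fold rise (log2 8.27, limma adjusted over all genes, as are all adjusted p below). Gbp5, which promotes NLRP3 inflammasome assembly, went from 5.42, 8.23, 5.39 and 12.97 to 4061, 4115, 4000 and 2929. Scaled to library totals instead, the median of all genes with LPS stood at -0.48 in WT and -0.43 in KO, and all 9 genes were still called higher. Over all genes, that scaling called 1971 higher and 7046 lower with LPS in WT, against 4027 and 4270 with TMM, and 1987 and 6780 in KO, against 3715 and 4259.

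The IRG regulators started higher and rose less. Irgm1, the master regulator that keeps effectors off host membranes, stood at 400.2, 371, 379 and 386 in WT and at 7024, 7401, 7457 and 6783 with LPS, an 18.6-fold rise. Igtp rose 25.4-fold and Irgm2 16.4-fold in WT. The effector Ifi47 rose 48.7-fold, from 73.2 ± 3.11 to 3690 ± 938 (SD, n = 4). Iigp1, the best studied effector, was the weakest member in every group and rose from 1.87 ± 1.06 to 298 ± 64.4 in WT (SD, n = 4). Its log2 rise of 6.75 depends on the pseudocount, since the untreated WT libraries held 6, 2, 2 and 6 reads of it. In KO the rises ran from 11.9-fold (Irgm2) to 385-fold (Gbp5), and the same 9 genes were called.

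Per kilobase of transcript, the order of the genes changed with LPS. In WT, Irgm1 was first at 167 ± 5.41 normalised reads per kb, followed by Igtp at 59.7 ± 4.68 (SD, n = 4), then Irgm2 at 41.5 and Ifi47 at 37.9 with overlapping ranges. Gbp3 followed at 8.39, above Gbp7 (5.14), Gbp2 (3.93) and Gbp5 (2.66), whose neighbouring ranges overlapped, and Iigp1 was last at 0.615. Irgm1 alone made up 51.1% of the summed per-kb level of the 9 genes in WT and 53.9% in KO. With LPS, Irgm1 remained first in WT at 3116 ± 139, but its share was 24.6%, as Gbp3 (2002), Ifi47 (1910) and Igtp (1526), overlapping in order, and Gbp2 (1306) and Gbp5 (1255), overlapping each other, had come nearer to it. Gbp7 (733) and Irgm2 (694) overlapped, and Iigp1 was last at 98.04. KO with LPS had Irgm1 at 3124 and 34.0% of the sum, and next came Igtp (1094), Gbp3 (1046) and Ifi47 (1046) with overlapping ranges. Gbp5 (978), Gbp7 (730), Gbp2 (671), Irgm2 (435) and Iigp1 (55.8) followed there without overlap. Gbp2 thus stood behind Gbp7 and behind Gbp5, which it had overlapped in WT with LPS. The WT values with LPS include replicate 4, whose deviation fell with transcript length, and the order was not computed without it. In replicates 1 to 3 Gbp2 averaged 3274 and Gbp5 4059 normalised reads, on transcripts of 2442 and 3008 bases. Ifi47 stood at 3103 to 3404 there and at 5084 in replicate 4. In untreated KO the order was that of WT except that Ifi47 (36.8) and Irgm2 (36.3), which overlapped, changed places.

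Untreated KO and WT cells were not called different for any of the 9 genes, where 35.5% of all genes were called. At an unadjusted p below 0.05, limma gave 2 of the 9. The closest to the threshold was Igtp, at 134, 112, 116 and 120 in WT and 114, 108, 100.3 and 107 in KO, a difference of -0.17 ± 0.06 (log2 ± SE, limma adjusted p = 0.0506). The others lay between -0.67 ± 0.31 for Iigp1 (adjusted p = 0.110) and 0.28 ± 0.22 for Gbp7 (adjusted p = 0.352), and Irgm1 differed by 0.02 ± 0.05 (adjusted p = 0.810). When the WT library with LPS that stood apart, which enters the shared estimate of the spread, was left out, 4 were called, where 58.9% of all genes were. These were Gbp7 higher by 0.27 (adjusted p = 0.00727) and Igtp, Irgm2 and Iigp1 lower by log2 differences of -0.17, -0.20 and -0.68 (limma adjusted p = 0.00519, 0.000971 and 0.0367). The untreated Iigp1 value is near the floor, with 6, 2, 2 and 6 reads in WT and 0, 1, 2 and 4 in KO. Its difference ran from -1.57 to -0.23 over the alternatives. Iigp1 passed the filter through its libraries with LPS, and a fit of the untreated groups alone did not test it.

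With LPS, 5 of the 9 genes were lower in KO than in WT (22.1% of all genes were), and none was higher. They were Gbp2, Gbp3, Ifi47, Irgm2 and Igtp, and their levels in KO were 0.515 to 0.717 times those of WT. The median of the 9 was -0.65 (log2), against 0.00 for all genes tested. Gbp2 and Gbp3 had the lowest ratios. Gbp2 stood at 1692, 1628, 1646 and 1594 in KO with LPS, every library below the WT libraries at 2934 to 3339, a difference of -0.96 ± 0.17 (log2 ± SE, limma adjusted p = 0.000399). Gbp3 stood at 5121, 5194, 5691 and 6648 in WT with LPS and at 3023, 3056, 2902 and 2861 in KO, a difference of -0.93 ± 0.18 (adjusted p = 0.000646). The 4 KO libraries lay close together and below all 4 WT libraries for both genes.

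Among the IRG genes the effector Ifi47 and the regulators Irgm2 and Igtp were called. Ifi47 libraries stood at 3170, 3103, 3404 and 5084 in WT with LPS and at 1971, 2077, 1990 and 2042 in KO, a difference of -0.84 ± 0.12 (limma adjusted p = 3.44e-05). Irgm2 stood at 2679, 2717, 2543 and 1804 in WT and at 1510, 1525, 1520 and 1553 in KO, a difference of -0.65 ± 0.10 (adjusted p = 9.25e-05). Igtp stood at 3142, 3184, 3158 and 2836 in WT and at 2162, 2261, 2205 and 2199 in KO, -0.48 ± 0.06 (adjusted p = 1.71e-05). Replicate 4 of WT was the nearest to the KO libraries for Irgm2 and Igtp and the farthest from them for Ifi47, and no WT library overlapped the KO range for any of the 3 genes. All 5 calls held in each of the 25 alternative settings and left-out libraries.

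The remaining 4 genes were not called with LPS. Irgm1, the most abundant, stood at 7219, 7368, 7040 and 7117 in KO, within the WT range of 6783 to 7457, and the interval of its difference ran from -0.11 to 0.12 (log2, 95%). Gbp5 stood at 2936, 2998, 2949 and 2888 in KO, where 3 WT libraries were at 4000 to 4115 and replicate 4 was at 2929, and its interval ran from -0.88 to 0.19 (limma adjusted p = 0.273). Gbp7, which has been linked to assembly of the phagocyte oxidase, stood at 5053, 5136, 4190 and 2014 in WT and at 3991, 4165, 4125 and 4053 in KO, so the groups overlapped only through replicate 4 of WT (interval -0.38 to 0.55, limma adjusted p = 0.765). Iigp1 stood at 322, 342, 325 and 202 in WT and at 169, 179, 176 and 154 in KO, with no overlap and a difference of -0.78 ± 0.31 (limma adjusted p = 0.0538).

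Leaving out replicate 4 of WT with LPS raised the number called lower from 5 to 7, where 28.5% of all genes were. The additions were Iigp1 at -0.95 (limma adjusted p = 0.00858) and Gbp7 at -0.22 (adjusted p = 0.0408), a change of sign for Gbp7. Irgm2 then stood at -0.79, Ifi47 at -0.67 and Igtp at -0.51, so the order of Irgm2 and Ifi47 depended on that library. Gbp5 at -0.46 (adjusted p = 0.197) and Irgm1 at -0.02 (adjusted p = 0.785) were still not called. The ratio of replicate 4 to the mean of the other 3 went from 0.66 (log2) for Ifi47, whose transcript of 1932 bases is the shortest, to -1.25 for Gbp7, whose transcript of 5591 bases is the longest. In between, the ratio was 0.32 for Gbp3, -0.10 for Irgm1, -0.16 for Gbp2 and Igtp, -0.47 for Gbp5, -0.55 for Irgm2 and -0.71 for Iigp1.

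**Figure D2:**
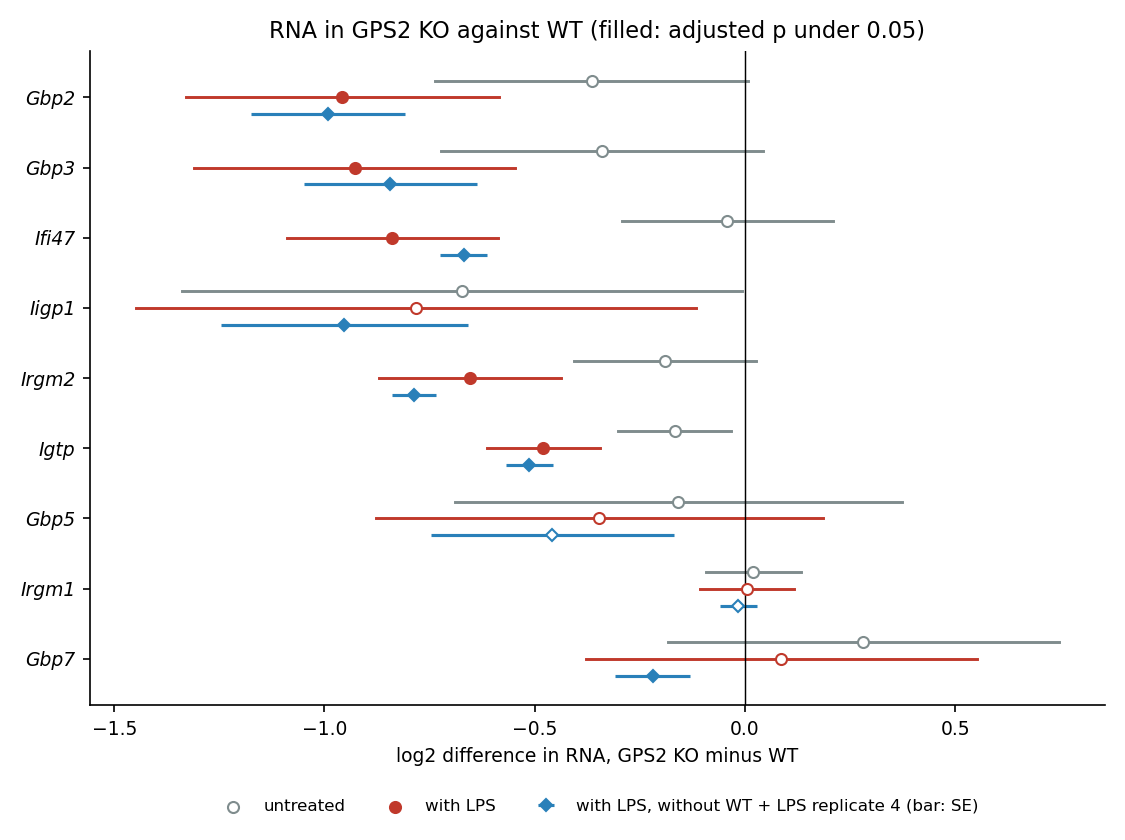
Difference of KO minus WT (log2) for each of the 9 genes, untreated in grey and with LPS in red with 95% intervals, and with LPS without replicate 4 of WT as blue diamonds with SE bars; filled symbols have a limma adjusted p below 0.05. Gbp2, Gbp3, Ifi47, Irgm2 and Igtp are filled and below 0 with LPS, and Irgm1 sits at 0.00.

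The response to LPS itself was smaller in KO for 3 of the 9 genes, where 10.4% of all genes had a smaller response, by a test of the difference between the 2 responses. Ifi47 differed by -0.80 ± 0.17 (log2 ± SE, limma adjusted p = 0.00252), with a 48.7-fold rise in WT and 28-fold in KO. Irgm2 differed by -0.46 ± 0.14 (adjusted p = 0.0310) and Igtp by -0.31 ± 0.09 (adjusted p = 0.0202). For Gbp2 and Gbp3 the difference was -0.59 each and was not called (limma adjusted p = 0.111 and 0.125), and Irgm1 stood at -0.01 (adjusted p = 0.917). The Ifi47 call held in 24 of 24 alternatives, but Irgm2 lost its call when any of 12 libraries was left out (adjusted p = 0.0518 to 0.0932) and Igtp when any of 6 was (adjusted p = 0.0602 to 0.0732), and library totals left Ifi47 alone. When replicate 4 of WT with LPS was left out, 4 genes were called lower, where 18.8% of all genes were: Ifi47 at -0.62, Irgm2 at -0.59, Gbp7 at -0.49 and Igtp at -0.34.

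Of 22 symbols listed for other mouse GBP and IRG genes, 15 were in the table and 13 were tested. The 22 include synonyms, such as Irgb10 beside Gm12250, so the absent symbols are not all absent genes. LPS raised 11 of the 13 in WT and 10 in KO. With LPS, 3 were lower in KO and 2 were higher (22.1% of all genes were called in each direction), with a median of 0.13 that became -0.09 without replicate 4 of WT, when 5 were lower and 2 higher (28.5% and 29.2% of all genes). Gm12250, which encodes the effector Irgb10, went from 351 ± 35.8 in WT to 116 ± 8.47 in KO (SD, n = 4), a difference of -1.59 (limma adjusted p = 3.97e-05). Gbp2b, the neighbour of Gbp2 and close to it in sequence, went from 3939 ± 376 to 2165 ± 108, -0.86 (adjusted p = 0.000112). In the other direction Gbp4 went from 30.1 ± 10.5 to 74.1 ± 4.24, 1.33 (adjusted p = 0.00188), and Gbp11 from 5.53 ± 0.908 to 11.3 ± 2.62, 0.90 (adjusted p = 0.00306). Gbp8 differed in untreated cells, from 0.585 ± 0.721 in WT to 21.9 ± 3.95 in KO (log2 3.95, limma adjusted p = 3.22e-08), and LPS lowered it in KO to 6.53 ± 1.81. With LPS and all libraries, these other genes were called in both directions at near the share of all genes, while the called members of the set of 9 were all lower. The 9 were chosen with earlier results of these data known, and this contrast was not tested.

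Of 21 tested genes for interferon, its receptors and their signalling, 10 were lower and 3 higher in KO with LPS, with a median of -0.20 (22.1% of all genes were lower and 22.1% higher). Ifnb1, which encodes interferon beta, went from 73.5 ± 37.0 in WT to 650.1 ± 29.0 in KO (SD, n = 4), 3.24 higher on the log2 scale (limma adjusted p = 6.49e-08), and 3.55 higher without replicate 4 of WT. Irf1, a transcription factor that binds ISREs, went the other way, from 1018 ± 36.2 to 503 ± 12.6, -1.01 (adjusted p = 8.98e-10). The STAT-induced feedback inhibitors Socs1 and Socs3 went from 187 ± 6.13 to 76.9 ± 7.97, -1.28 (adjusted p = 0.000138), and from 14969 ± 1236 to 8864 ± 377, -0.75 (adjusted p = 1.97e-06). The genes called lower therefore included Irf1, Socs1 and Socs3, and Ifnb1 was called higher in the same libraries.

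Of 9 tested inflammasome genes, 5 were lower and 2 higher in KO with LPS (median -0.63). Over all genes 22.1% were lower and 22.1% higher, and the same shares apply to the other lists of this paragraph with all libraries in the fit. Il18 went from 829 ± 279 to 425 ± 13 (-0.91), Casp1 from 1785 ± 384 to 1100.4 ± 40.2 (-0.67) and Zbp1 from 3504 ± 81.5 to 2207 ± 46.6 (-0.67), while Nlrp3 went from 4069 ± 749 to 6502 ± 170 (0.70). Of 15 genes of ATG8 conjugation and of ubiquitin-dependent delivery, which place GBPs and IRGs on vacuoles, 7 were lower and 3 higher (median -0.12). Map1lc3a went from 70.5 to 20.4 (-1.71) and Map1lc3b from 164 to 106 (-0.58), and Rnf213 went from 10672 to 15581 (0.60) and Sqstm1 from 4457 to 6414 (0.53). Of 7 enzymes of the prenylation pathway, which provides the lipid anchor, 2 were lower and 1 higher (median -0.05): Fdps went from 1574 to 1079 (-0.50), Rce1 from 262 to 182 (-0.50) and Icmt from 394 to 473 (0.27). When replicate 4 of WT was left out, 11 of 21, 5 of 9, 7 of 15 and 2 of 7 genes of these 4 lists were lower, where 28.5% of all genes were, so the prenylation enzymes were at the share of all genes. Of the genes named, Map1lc3b (-0.37), Rnf213 (0.38), Fdps (-0.31) and Icmt (0.18) then differed less by over 1.5 times, and each was still called.

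The 5 genes outside the set whose levels ran most like those of the 9, by Pearson's r with the mean scaled log2 profile over the 16 libraries, were Socs3 (0.9992), Ifi203 (0.9991), Herc6 (0.9991), Tap1 (0.9990) and Slfn5 (0.9990). These values are descriptions, since the 16 libraries are 4 groups and share the LPS rise. Ifi203 went from 5911 ± 753 in WT with LPS to 4476 ± 82.2 in KO, Herc6 from 1767 ± 111 to 1317 ± 47.1, Tap1 from 4225 ± 83.2 to 3384 ± 43.0 and Slfn5 from 9033 ± 1438 to 7186 ± 117 (SD, n = 4). Each of the 9 correlated with the mean of the other 8 between 0.992 (Iigp1 and Gbp7) and 0.999 (Igtp).

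**Figure D3:**
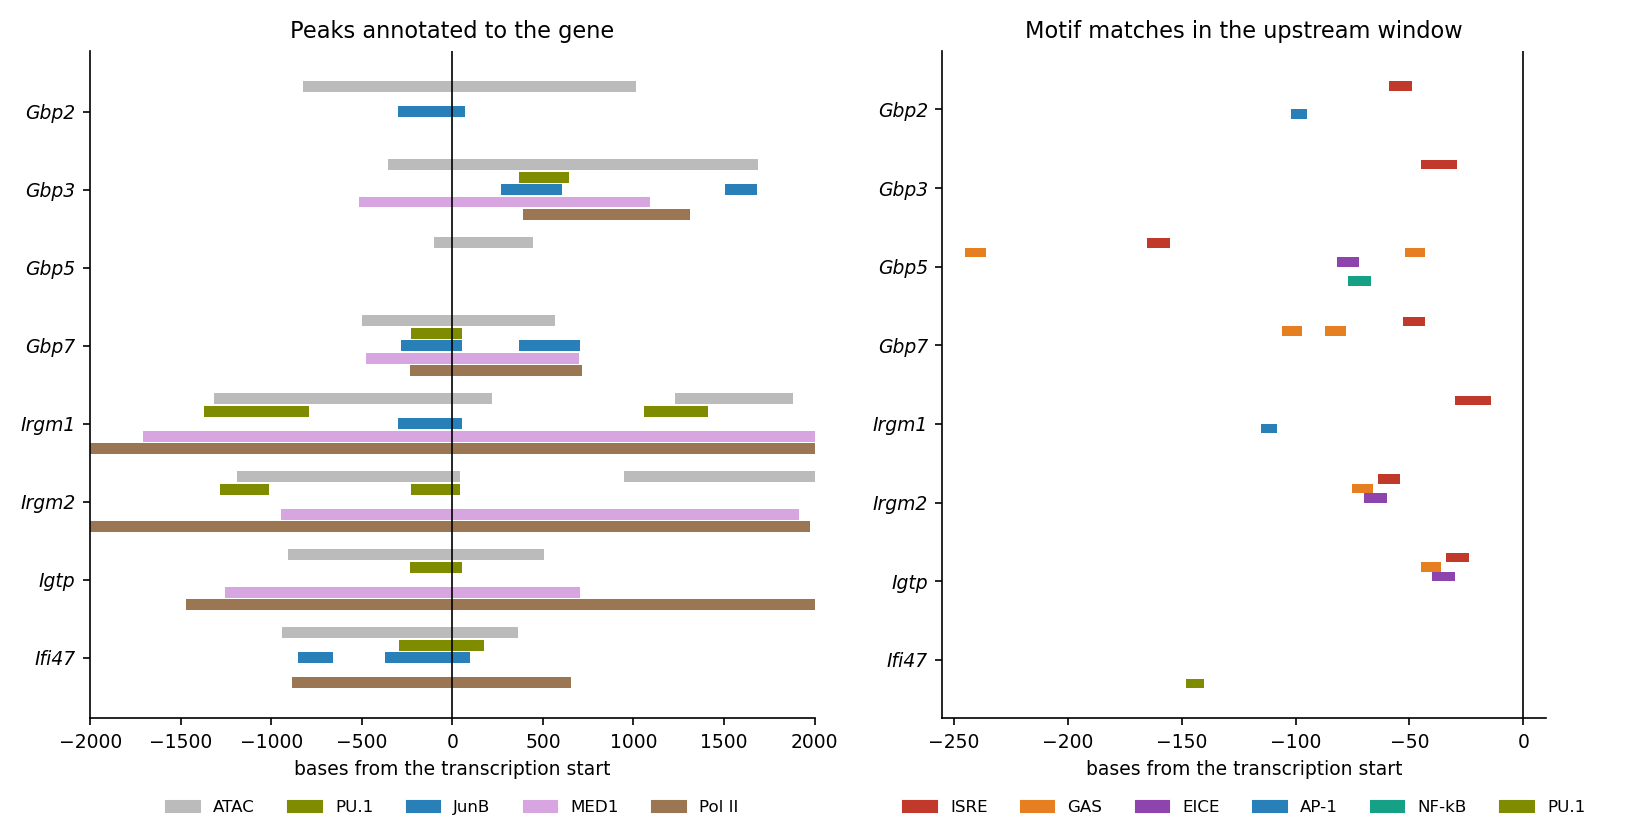
Left, deposited peaks within 2 kb of the RefSeq start of 8 genes, 1 row per assay (ATAC, PU.1, JunB, MED1, RNA polymerase II), by distance from that start. Right, matches to the motif letters in the bases upstream of the RefSeq start; Gbp3, Gbp7 and Irgm1 have a peak of every assay.

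At the promoters, a peak that reached within 1 kb of a start was present for 8 of 9 genes in the ATAC table, for 6 in the PU.1 and RNA polymerase II tables and for 5 in the JunB and MED1 tables. Gbp3, Gbp7 and Irgm1 had all 5 kinds, although the centres of the Irgm1 PU.1 peak and of its wide RNA polymerase II region lay beyond 1 kb. Igtp and Irgm2 had all but JunB. Ifi47 had all but MED1 when peaks at the RefSeq start and at the start used in the RNA table were counted together. Its only PU.1 peak (chr11:48889795-48890263) lay at the RefSeq start. Gbp2 had ATAC and JunB, Gbp5 had ATAC alone, and Iigp1 had none. Of the 16 PU.1 peaks, 14 (87.5%) overlapped an ATAC region by at least 1 base, and 12 of the 25 ATAC regions (48.0%) overlapped a PU.1 peak. All 7 MED1 regions overlapped both an ATAC and an RNA polymerase II region. Within 100 bases of the peak centres the ISRE pattern occurred in 6 of 16 PU.1 peaks (3.63% of all PU.1 peaks), 5 of 19 JunB peaks (2.60% of all) and 4 of 25 ATAC regions (2.88% of all). AP-1 letters occurred in 11 of the 19 JunB peaks, against 52.4% of all JunB peaks.

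Open chromatin at the members in untreated cells was seldom called different between control and KO. At an unadjusted p below 0.05, limma gave 6 of the 25 regions, 4 higher and 2 lower in KO. After adjustment 1 of the 25 was called, where 7.20% of all regions were, and the median difference was 0.00 on the deposited log2 scale. That region, 18.4 kb upstream of Gbp5 (chr3:142141349-142141635), stood at 2.81, 2.89 and 2.93 in the control and at 2.98, 3.12 and 3.13 in KO, a difference of 0.20 ± 0.06 (log2 ± SE, limma adjusted p = 0.00920), and its call was lost when any of 3 libraries was left out. The groups did not overlap there. The Irgm1 promoter stood at 6.80, 6.81 and 6.61 in the control and 6.59, 6.82 and 6.83 in KO. At Gbp3 the values were 5.76, 5.63 and 5.56 against 5.80, 5.85 and 5.80, not called (0.17, limma adjusted p = 0.214). The Gbp5 promoter, for which the RNA was near silent in both, was the least open of these at 2.38, 2.28 and 2.27 against 2.22, 2.24 and 2.22. The Gbp2 promoter, at a like RNA level, was at 5.19, 5.27 and 5.15 against 5.10, 5.09 and 5.36.

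PU.1, the ETS factor that opens macrophage enhancers, showed few differences at the members. No peak was called between untreated KO and WT (7.89% of all peaks were), for LPS in WT (18.6%) or for the difference of the LPS responses (8.17%), where limma gave 1, 0 and 3 peaks at an unadjusted p below 0.05. One was called between KO and WT with LPS (8.59%) and 1 for LPS in KO (18.8%). The first, 3.2 kb upstream of Irgm1 (chr11:48688014-48688301), stood at 15.8 and 23.3 in WT with LPS and at 29.1 and 44.5 in KO, 0.87 ± 0.30 higher (log2 ± SE, limma adjusted p = 0.0444). The second, 26.7 kb upstream of Gbp5 (chr3:142133034-142133313), went from 12.6 and 9.70 in KO to 33.3 and 20.9 with LPS, 1.199 ± 0.393 higher (adjusted p = 0.0184). Neither was called after scaling to library totals (0.46 and 0.63, limma adjusted p = 0.248 and 0.184), and each lost its call when any 1 of 3 libraries was left out. The Gbp7 promoter peak was the strongest of the promoter peaks, at 94.4 and 94.6 in WT, 103 and 74.1 in WT with LPS, 77.9 and 66.7 in KO and 76.3 and 82.0 in KO with LPS. The Irgm2 promoter peak stood at 57.0 and 60.51, 44.9 and 58.2, 68.4 and 58.2, and 55.5 and 55.6 in the same order.

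TMM factors assume that most peaks keep their level, and the ChIP libraries differed in the share of reads that fell in peaks, which was 15.5 to 25.2% in the WT PU.1 libraries and 11.7 to 17.5% in the KO ones. Scaled to library totals instead, 6 member peaks were lower in untreated KO (45.7% of all peaks were), 3 in KO with LPS (25.7%), 9 with LPS in WT (59.4%) and 5 with LPS in KO (39.7%). The median over all peaks moved by -0.42 to -0.70 under that scaling, so the members' counts went with those of the whole table.

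JunB, an AP-1 subunit that LPS induces, differed at 5 of the 19 member peaks between KO and WT with LPS, 4 higher and 1 lower (29.1% of all peaks were called). The largest peaks of the 5 were 2 promoters and the Gbp5 intron shown above. The Gbp5 intronic peak (chr3:142162153-142162405) stood at 17.5 and 20.1 in WT with LPS and at 29.0 and 36.8 in KO, 0.82 ± 0.18 higher (log2 ± SE, limma adjusted p = 9.94e-05). The Gbp2 promoter peak (chr3:142283328-142283696) stood at 30.2 and 32.1 in WT and at 51.3 and 41.5 in KO, 0.55 ± 0.14 higher (adjusted p = 0.000819), while its RNA at 6 h was lower in KO. The Irgm1 promoter peak (chr11:48684868-48685222) went the other way, from 42.5 and 36.8 to 27.1 and 29.8, -0.47 ± 0.15 (adjusted p = 0.00971), and its RNA at 6 h was not called different.

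These 3 peaks held their call with library totals (log2 0.68, 0.40 and -0.62, limma adjusted p = 0.00152, 0.0209 and 0.000621), under which 32.5% of all peaks were called. The Irgm1 call was lost without either of 2 libraries (-0.41 and -0.36, adjusted p = 0.0825 and 0.148). The other 2 peaks, at Gbp3, were weak, and both lost their call with library totals (adjusted p = 0.0675 and 0.0755) and when any 1 of 3 libraries was left out. The peak 9.6 kb upstream of the start went from 4.46 and 5.03 to 8.08 and 10.2, and the peak 1.3 kb downstream of it from 5.15 and 5.42 to 9.03 and 10.6. With limma run without weights none of the 5 was called, and only 0.0289% of all peaks were.

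**Figure D4:**
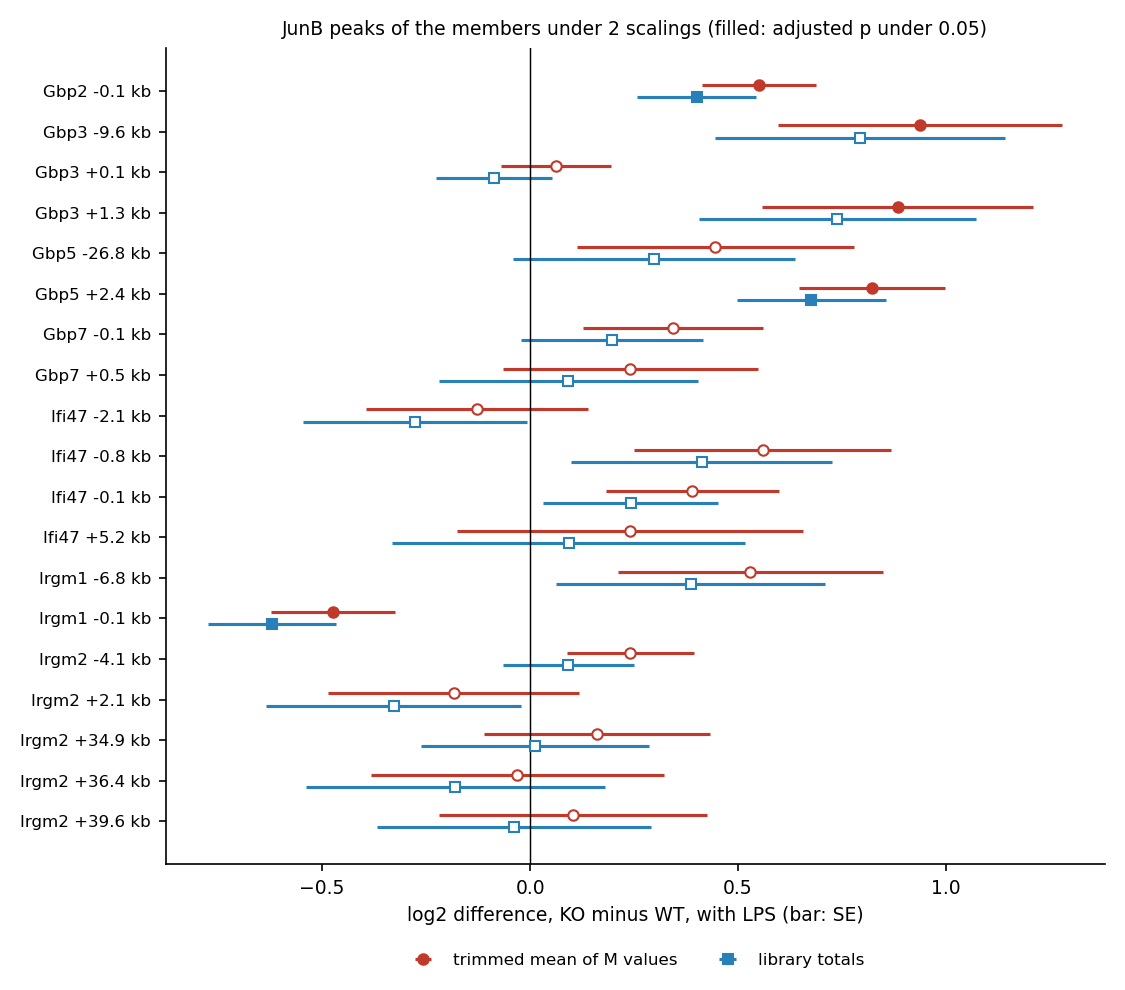
KO minus WT with LPS (log2) at the 19 JunB peaks of the members, scaled by TMM (circles) and by library totals (squares), with SE bars; filled symbols have a limma adjusted p below 0.05. The Gbp5 intron and the Gbp2 promoter are filled and above 0, and the Irgm1 promoter is filled and below 0, under both scalings.

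The effect of LPS on JunB depended on the scaling. In all JunB libraries the share of reads in peaks was 5.79 to 7.51% untreated and 25.2 to 29.2% with LPS. With TMM, 1 member peak was higher and 5 lower with LPS in WT (38.8% of all peaks were called), and 1 was higher and 3 lower in KO (34.7%). With library totals, 18 of 19 were higher in WT (95.0% of all peaks were) and 19 of 19 in KO (91.8%). The deposited value of the Gbp2 promoter peak, reads per 10000000 mapped, was 24.4 and 38.6 in WT, 65.8 and 70.2 in WT with LPS, 20.8 and 19.7 in KO and 103 and 80.4 in KO with LPS. The Gbp5 intronic peak stood at 7.5 and 13.1, 38.1 and 44.0, 5.01 and 6.94, and 58.4 and 71.3 in that order, and it was the 1 peak called higher with LPS in KO under TMM too (1.21, limma adjusted p = 0.0166, against 3.41 with library totals). The TMM call was lost when either of 2 libraries was left out (adjusted p = 0.0622 and 0.174).

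Untreated KO and WT differed at 1 JunB peak (8.44% of all were called), which was also the 1 peak called for the difference of the LPS responses (5.19%). It lies 39.6 kb from the start of Irgm2 (chr11:58068019-58068215) and is thin, with 0 and 0 reads in WT, 3 and 2 in KO, 20 and 19 in WT with LPS and 13 and 23 in KO with LPS. Set against a floor of 3 reads over the WT group, the 5 reads in KO gave a ratio of 2.88 by TMM and 2.34 by library totals. The KO reads were taken as exact there, so these ratios are not lower bounds on the difference. The difference of the LPS responses was -3.26 (log2, limma adjusted p = 0.0272), a fitted value that depends on the prior count, and leaving out any of 5 libraries ended that call.

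MED1, a Mediator subunit that bridges enhancers and RNA polymerase II, was called different at 0 of the 7 member regions between KO and WT with LPS by TMM, where 7.10% of all regions were called, and at 4 of the 7 at an unadjusted p below 0.05 in limma. The strongest in WT, the Irgm1 promoter region (chr11:48682498-48686630), stood at 133.5 and 132.2 in WT and at 124.5 and 96.8 in KO, -0.28 ± 0.13 (log2 ± SE, limma adjusted p = 0.204). Igtp went from 31.2 and 31.7 to 16 and 25, -0.62 ± 0.29 (adjusted p = 0.201). Gbp3 and Gbp7 lay on the other side, at 0.53 and 0.65 (adjusted p = 0.155 and 0.153). With library totals 5 of the 7 were lower (67.9% of all regions were), among them the Irgm1 promoter at -1.05 and Igtp at -1.39, and Gbp3 (-0.25) and Gbp7 (-0.12) were not called. The share of MED1 reads in regions was 14.6% in both WT libraries and 8.81 and 8.92% in the KO libraries.

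RNA polymerase II gave opposite directions under the scalings. By TMM, 9 of the 13 member regions were higher in KO with LPS and none lower, where 24.2% of all regions were higher, and by library totals 9 were lower and none higher, where 90.3% of all regions were lower. The share of reads in regions was 46.4 and 45.0% in WT and 14.2 and 14.4% in KO, and the median of all regions was 0.01 by TMM and -1.88 by library totals, so directions hold only relative to that median. The members' median was 0.98 by TMM and -0.91 by library totals, above the median of all regions under each. A change of scaling shifts all regions by about the same amount, so finding this under both scalings is no separate check.

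The region over Irgm1 (chr11:48675829-48689045) was the strongest, at 427 and 456 in WT and 860.5 and 818 in KO by TMM, 0.93 ± 0.06 (limma adjusted p = 2.08e-16), and its deposited values averaged 849 in WT and 436 in KO, -0.96 by library totals. Igtp went from 72.6 and 67.5 to 138 and 137, 0.98 ± 0.15 by TMM and -0.91 by library totals. Gbp3 and Gbp7 stood farthest above the rest. Gbp3 went from 6.00 and 7.13 to 30.1 and 20.8 by TMM, 1.93 ± 0.37 (limma adjusted p = 3.86e-05), and differed by 0.04 by library totals (adjusted p = 0.913). Gbp7 went from 10.5 and 12.8 to 42.5 and 29.4, 1.61 ± 0.31 by TMM and -0.28 by library totals (adjusted p = 0.377). Gbp3 RNA at 6 h was lower in KO, and the RNA polymerase II libraries were made at 2 h. The Ifi47 region nearest to the start used in the RNA table rose from 16.01 and 16.16 to 35.4 and 24.2 by TMM, 0.88 ± 0.30 (limma adjusted p = 0.0156), a call that was lost without replicate 1 of KO (0.62, adjusted p = 0.222).

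**Figure D5:**
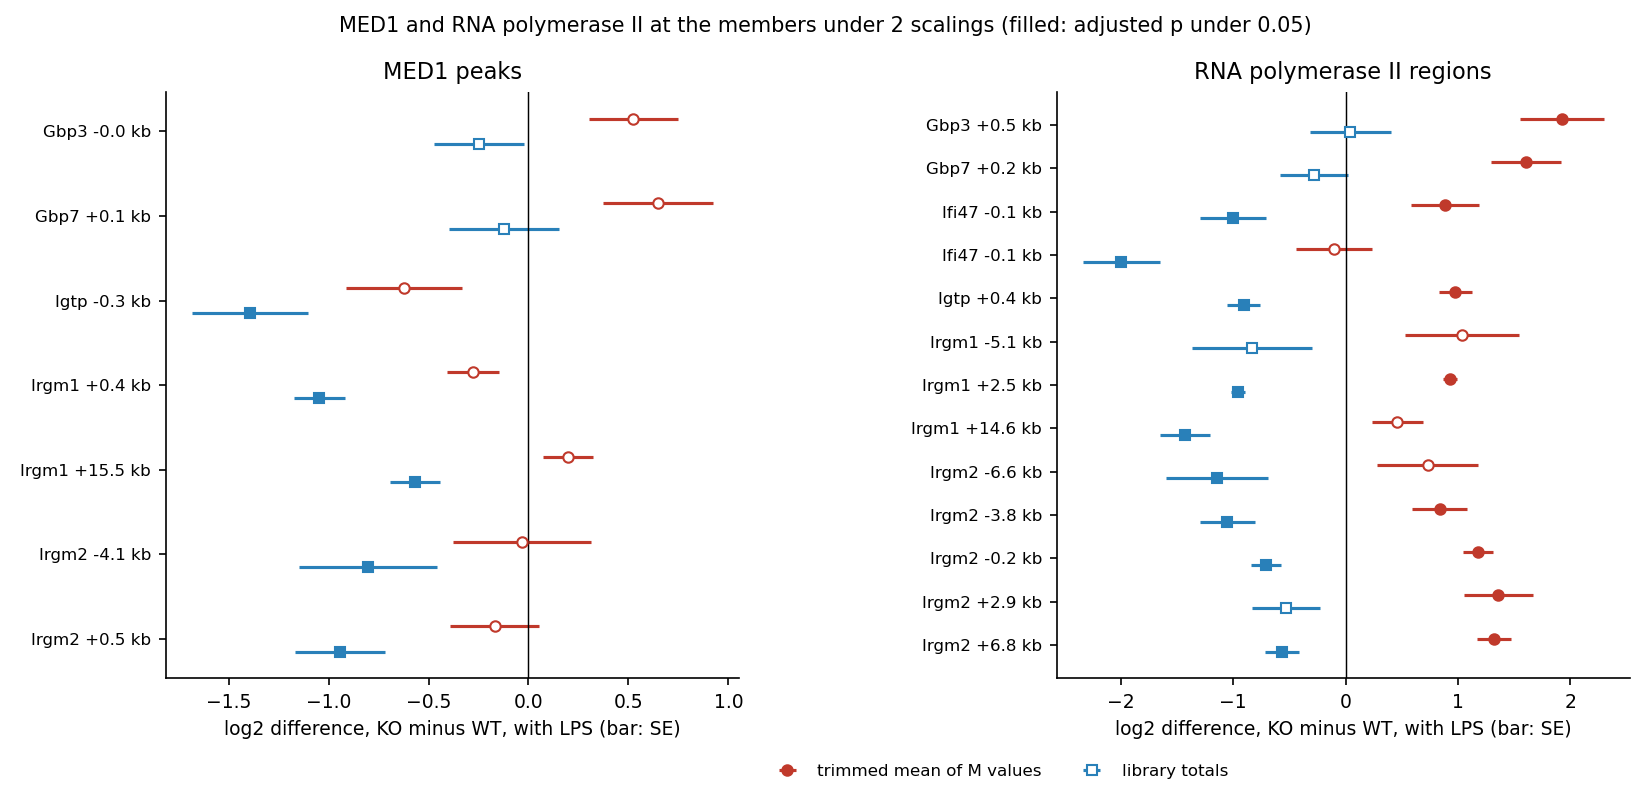
KO minus WT with LPS (log2) at the 7 MED1 and 13 RNA polymerase II regions of the members, scaled by TMM (circles) and by library totals (squares), with SE bars; filled symbols have a limma adjusted p below 0.05. Every square sits lower than its circle, and for RNA polymerase II 9 circles are filled above 0 and 9 squares are filled below 0.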

How the data were processed

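Per the submitters' processing notes, BWA, Bowtie2, HISAT2, HOMER, MACS2, DESeq2, edgeR and the build mm9 were used, with no roles given. The tables of RNA-seq and ChIP-seq were deposited in reads per 10000000 mapped reads, per the file headers, and the authors deposited the ATAC-seq table in log2 values whose transformation is not given in the sources used here. Whole reads were recovered from the former for all values of up to 200 reads (tolerance 0.05 read), and 8 columns that repeat libraries rescaled were not used. Depth was the mapped reads of each library. A feature was tested if it had 10 reads, at the median depth, in a number of libraries equal to the smallest group's size, and 15 reads in all.

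RNA was tested with limma (trend, robust) on log2(value/TMM factor + 1), all 16 libraries in 1 model, ChIP-seq with limma voom on recovered reads with TMM factors, and ATAC-seq with limma (trend, robust) on the deposited values. Tests were two-sided, with Benjamini-Hochberg adjustment over all features tested and calls at adjusted p under 0.05, in 18 comparisons. Count models were planned as alternatives and not run. Code was tested on simulated data.

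All 9 genes are described; of the peaks, the nearest to the start and the called peak with the largest change per gene and table; of each pathway list, up to 4 called genes with the largest change. The weaker of the Gbp3 JunB peaks called was outside this rule and was named after its values were seen. The members and lists were chosen with earlier results of these data known. The pathway lists without replicate 4 of WT with LPS were recomputed as an alternative chosen after seeing the data. Replicate numbers did not pair RNA libraries (correlations of same-numbered deviations -0.37 to 0.21). The software was R 4.3.3, limma 3.58.1, Python 3.11.15, pandas 2.3.3 and matplotlib 3.10.9. Of 247 samples, 46 libraries have values in the 6 tables used.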

Additional observations from a re-analysis of the deposited data

Results flagged for a closer look

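In 6 of 36 pairs of a gene and a group (9 genes, 4 groups of 4 RNA libraries), 1 library lay far from the other 3. Chance gives about 1 in 20 for any pair, but the genes share libraries, so the 36 pairs are not independent. Replicate 4 of WT with LPS was that library for 4 genes: Gbp5 at 2929 normalised reads (others 4000 to 4115), Igtp at 2836 (others 3142 to 3184), Iigp1 at 202 (others 322 to 342) and Ifi47 at 5084 (others 3103 to 3404). It is the library that stood apart over all genes. In untreated KO, replicate 3 stood apart for Irgm1 at 425 (others 375 to 382) and replicate 1 for Ifi47 at 65.1 (others 72.4 to 73.7).

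The response to LPS differed between KO and WT by the test of the difference itself for Igtp (-0.31, limma adjusted p = 0.0202), Irgm2 (-0.46, adjusted p = 0.0310) and Ifi47 (-0.80, adjusted p = 0.00252) in RNA, and for the JunB peak 39.6 kb from the start of Irgm2 (-3.26, adjusted p = 0.0272), which held 0 reads in untreated WT. Of 24 alternatives, Ifi47 was called in 24, Igtp in 17 and Irgm2 in 11. The JunB call was lost when any of 5 libraries was left out.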

How the results depend on the processing

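The number of genes lower in KO with LPS and the numbers raised by LPS in either genotype stayed within 1.5 times under every RNA alternative run. With library totals, 1 gene differed between untreated KO and WT, and the same number did with median-of-ratios factors, a pseudocount of 0.1 or only the groups compared in the fit, and 4 did with library weights. For the difference of the LPS responses, library totals gave 1 gene and a pseudocount of 5 gave 5. In ATAC-seq, limma with neither trend nor robust moderation called 0 of the regions, as did keeping regions above the median level. Library totals gave 6, 3, 9 and 5 PU.1 peaks lower (untreated KO, KO with LPS, LPS in WT, LPS in KO) and 1 for the difference of the responses. For JunB they gave 2 (untreated KO), 3 (KO with LPS), 18 and 19 higher with LPS in WT and KO, and 2 for the difference, for MED1 5 and for RNA polymerase II 9 lower. Keeping peaks with a mean of 50 reads or more gave 1, 0 and 0 PU.1 peaks (untreated KO, KO with LPS, LPS in KO), 0, 2, 3, 1 and 0 JunB peaks (untreated KO, KO with LPS, LPS in WT, LPS in KO, difference) and 4 RNA polymerase II regions. Without weights JunB gave 0 for KO with LPS, 3 for LPS in KO and 0 for the difference. The cause of these changes was not tested beyond the number of peaks kept and the scaling itself.

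Changes of sign are listed here for the members' RNA values and for the peaks called with TMM. With library totals, Irgm1 RNA changed sign in untreated KO (-0.0607) and in the difference of responses (0.0614, and 0.0016 with median-of-ratios). JunB peaks with LPS in WT did so at Gbp2 (1.17), Gbp7 (0.85), Ifi47 (0.26), Irgm2 (1.48) and Gbp3 (1.08), and in KO at Gbp7 (1.02), Gbp3 (1.52) and Irgm1 (1.53). RNA polymerase II regions did so at Gbp7 (-0.28), Igtp (-0.91), Irgm1 (-0.96), Ifi47 (-0.9996) and Irgm2 (-0.53, -0.56, -0.71 and -1.05). Peaks not called with TMM changed sign too and are not listed. For LPS in WT, 13 of 19 JunB peaks lay below 0 with TMM and 0 with library totals. For untreated KO against WT, 8 of 16 PU.1 peaks lay above 0 with TMM and 1 with library totals. A pseudocount of 0.1 turned the difference of responses of Iigp1 to 0.79, and library weights turned Irgm1 (-0.0083) and Gbp7 (-0.24) in KO with LPS.

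With 1 library left out at a time, the number of genes called was 0 to 4 in untreated KO and 1 to 4 for the difference of responses. It was 0 to 2 for ATAC-seq, 0 to 1 for PU.1 in KO with LPS, LPS in KO and the difference, and for JunB 1 to 3 (untreated KO), 2 to 5 (KO with LPS), 3 to 6 (LPS in WT), 0 to 6 (LPS in KO) and 0 to 3 (difference). Among the members' RNA values and the called peaks, those that crossed 0 were Irgm1 (-0.0221 to 0.0395 in untreated KO, -0.0157 to 0.0398 with LPS, -0.0347 to 0.0279 for the difference), Gbp7 with LPS (-0.22 to 0.24), Gbp5 in untreated KO (-0.31 to 0.0791), Iigp1 for the difference (-0.37 to 0.17) and Ifi47 in untreated KO (-0.0678 to 2.59e-05). With the replicate block JunB gave 3 peaks for KO with LPS in place of 5, and no RNA count of calls changed. The replicate numbers did not pair the RNA libraries. The planned count models were not run.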
